A study of Bos grunniens with 18 samples.

Results

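The genes described here were taken by symbol from a rule for components of motile cilia, the beating cell projections built on an axoneme of microtubule doublets and dynein arms. The rule took every gene whose symbol begins with CFAP, DNAH, DNAI, TEKT, RSPH or DRC, and also FOXJ1, KIF17, SPAG6, CCDC39, CCDC40 and HYDIN. Of the 173 genes with FPKM values analysed here, a leading portion of the table and not the whole transcriptome, 1 met it, KIF17. Of the 173, 65 had no symbol and could not meet the rule. Of the peak lists of N6-methyladenosine (m6A), a methyl mark on adenosine in mRNA, 1 further gene met it, CCDC39, with 3 of the 282 peaks analysed in pregnancy. The rule was proposed with earlier results of these data known, among them the high FPKM of KIF17 in the estrus library YO-F2. KIF17 is therefore treated as chosen by its FPKM in YO-F2, and its level in that library is a description with no test.

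Ovaries came from healthy yaks (Bos grunniens) aged 6 years, of 1 farm, with no treatment stated, in anestrus in April (YO-A), in estrus in August (YO-F) and in pregnancy in December (YO-P). Each stage had 3 input libraries of poly(A) RNA and 3 libraries of RNA bound by an m6A antibody, and since every stage was collected in its own month, stage and month cannot be told apart. The study left the estrus library YO-F2 out after its principal component analysis, and it is given apart here. YO-F2 exceeded all other libraries by over 1 log2 unit for 14 of the 173 genes and fell below them by as much for 19, against 0 to 3 and 0 to 1 genes for each of the other 8 libraries.

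KIF17 is a motor of the kinesin-2 family that carries cargo along microtubules toward the tip of the cilium and along dendrites. It serves sensory and primary cilia as well as motile ones, so on its own it does not mark a motile cell. CCDC39 works with CCDC40 as the ruler of the axoneme, which sets the spacing of the inner dynein arms and of the nexin-dynein regulatory complex. Granulosa cells and other ovarian cells carry single primary cilia, whereas beating cilia cover cells of the neighbouring oviduct epithelium. The defining genes of multiciliated cells, such as FOXJ1, their master transcription factor, and the dynein heavy chains, were not found by symbol among the genes analysed. The name of the gene group could therefore not be checked against its markers. Of 86 symbols listed by role in the axoneme, KIF17 was the only one with an FPKM value analysed. A further 13 lists, of other cilium genes and of epithelial, granulosa, luteal, oocyte, stromal, muscle, endothelial, leukocyte and sperm markers, hold 234 genes. Of these, 0 were found by symbol among the 173, where the 65 genes without a symbol could not match any list. The labelled tissue could therefore not be checked by its markers either.

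KIF17 (ENSBGRG00000000228) lies on the minus strand of chromosome 2 from 4828371 to 4895857 in the coordinates of the deposited table, with 2 transcripts. Its values are in FPKM, fragments scaled for exon length and for the size of the library, and the number of fragments behind a value is unknown. In anestrus KIF17 had 2.12, 0.613 and 1.05 FPKM in replicates 1, 2 and 3. In estrus it had 0.691 FPKM in replicate 1 and 1.31 in replicate 3. In pregnancy it had 0.710, 1.47 and 0.840 FPKM. The lowest and the highest of the 8 libraries were both from anestrus, and the values of every stage overlapped those of the others.

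**Figure D1:**
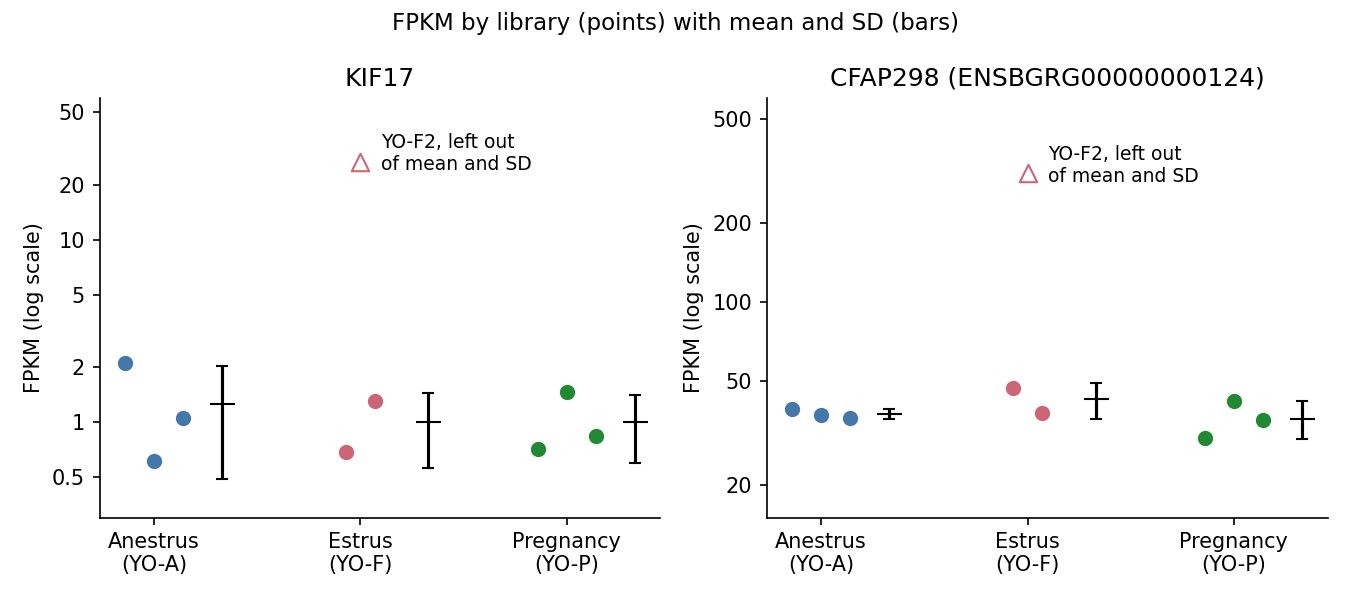
FPKM on a log scale in each input library of the 3 stages (filled points, left to right by replicate number) for KIF17 and for the gene annotated as CFAP298, with the mean and SD of each stage without YO-F2 (bars). The stages overlap for both genes, and the open triangle, YO-F2, sits at 26.8 FPKM for KIF17 and at 310 for CFAP298.

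The stage means of KIF17 were 1.26 FPKM ± 0.775 (SD, n = 3) in YO-A, 1.01 ± 0.406 (SD, n = 3) in YO-P and 1.00 ± 0.439 (SD, n = 2) in YO-F. In that order no neighbouring stages differed beyond their spread. Within anestrus alone the highest library was 3.46 times the lowest, within pregnancy 2.07 times and within estrus 1.90 times. The residual SD of KIF17 after the stages were fitted was 0.66 on the log2 scale, where the median over the 126 genes tested was 0.30 and 25 genes had a larger one.

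The 3 comparisons asked whether ovarian expression differs between reproductive stages. They were made with limma on log2(FPKM + 0.1), all stages in 1 fit. Genes entered when their FPKM averaged 0.1 or more without YO-F2, which 126 genes did, KIF17 among them. A gene was called by the standard the study used, a log2 fold change of 1 or more in either direction and an unadjusted p under 0.05. The added 0.1 shrinks the differences of weakly expressed genes. In whole ovary tissue, fewer cells of a type and less RNA per cell cannot be told apart.

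KIF17 was called in none of the 3 comparisons. In YO-FvsA its log2 fold change was -0.21 (standard error 0.57, limma, Benjamini-Hochberg adjusted p = 0.943), and the 95% interval ran from -1.50 to 1.08. In YO-FvsP it was -0.0069 (standard error 0.57, limma adjusted p = 0.991), with an interval from -1.30 to 1.28. In YO-PvsA it was -0.20 (standard error 0.51, limma adjusted p = 0.908), with an interval from -1.36 to 0.95. As folds, the intervals span 0.353 to 2.12, 0.407 to 2.44 and 0.390 to 1.93, so a 2-fold change in either direction lay within each interval, except a rise in YO-PvsA. The share of all 126 genes called was 0.794% for YO-FvsA, 2.38% for YO-FvsP and 2.38% for YO-PvsA. By limma, 0 genes had an adjusted p under 0.05 in these fits, and 11 (8.73%), 12 (9.52%) and 4 (3.17%) had an unadjusted p under 0.05. That count of 0 did not hold under all settings: without estrus replicate 3 it was 5 genes for YO-FvsA and 1 for YO-FvsP, and KIF17 was not one of them. The exact two-sided permutation p of KIF17 was 1, 0.8 and 0.7, where the smallest this design allows is 0.2 with 2 estrus libraries and 0.1 with 3 against 3.

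The sign of the KIF17 difference rested on single libraries. In YO-FvsA it was 0.22 without anestrus replicate 1 and 0.21 without estrus replicate 1. In YO-FvsP it was 0.41 without estrus replicate 1 and 0.28 without pregnancy replicate 2. In YO-PvsA it was 0.23 without anestrus replicate 1. None of these fits called the gene. Where 1 estrus library was left, it was assumed to vary like the other groups.

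**Figure D2:**
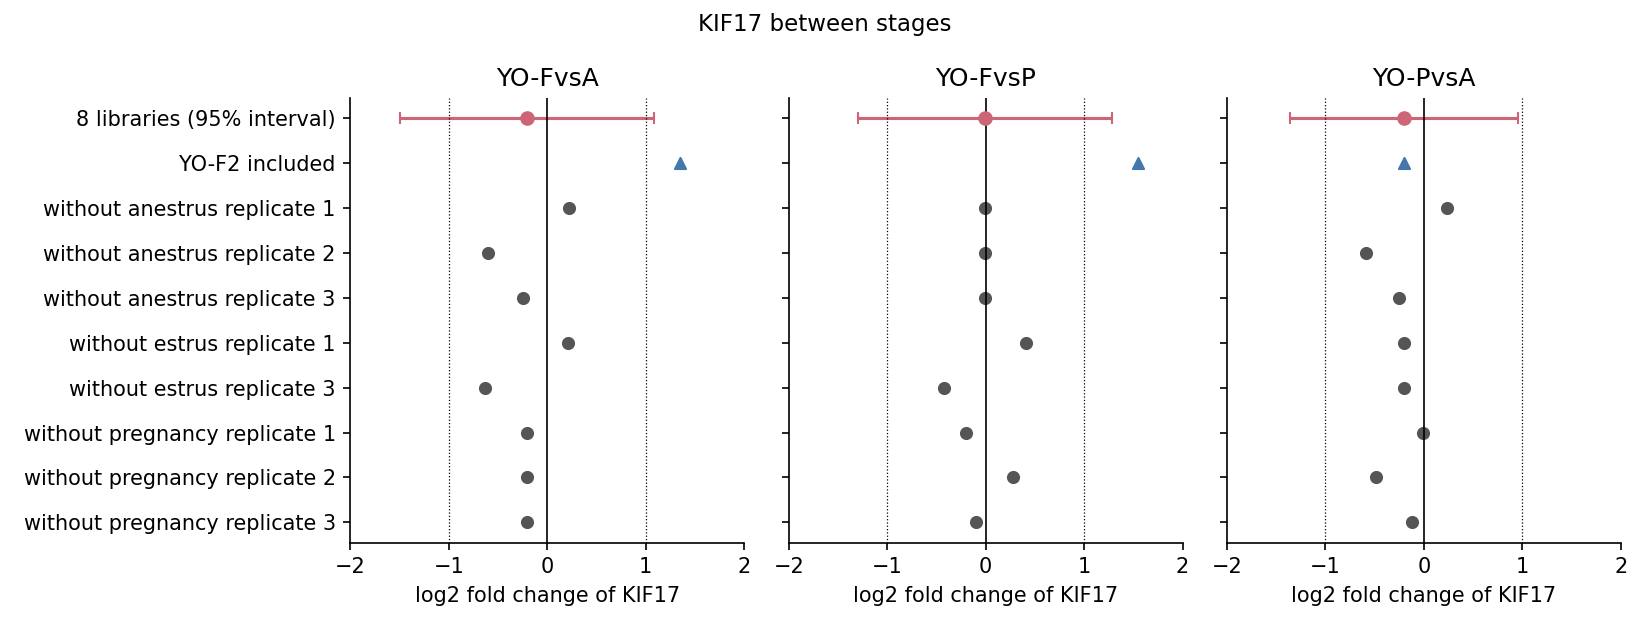
log2 fold change of KIF17 in the 3 stage comparisons, from limma on log2(FPKM + 0.1), with the 95% interval for the 8 libraries (top), with YO-F2 included (triangle) and with each library left out in turn. Dotted lines mark the minimum of 1 in either direction. Of the fold changes, only those with YO-F2 in YO-FvsA and YO-FvsP go past it, at 1.35 and 1.55. The 95% interval reaches past a dotted line in each comparison.

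In YO-F2, KIF17 had 26.8 FPKM. This was 12.7 times the highest of the other 8 libraries, 28.4 times their median and 43.8 times the lowest. On the log2 scale it lay 3.60 above the highest other library, the second largest such gap among the 173 genes, after ENSBGRG00000000242. Genes more than 1 log2 unit above all other libraries made up 8.09% of the 173, and since KIF17 was picked for this value nothing is read from its being one of them. By FPKM, which is per length and so comparable between genes, KIF17 ranked 24th of 173 in YO-F2 and 102nd by its mean over the other libraries. With YO-F2 the estrus mean was 9.61 FPKM ± 14.9 (SD, n = 3).

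**Figure D3:**
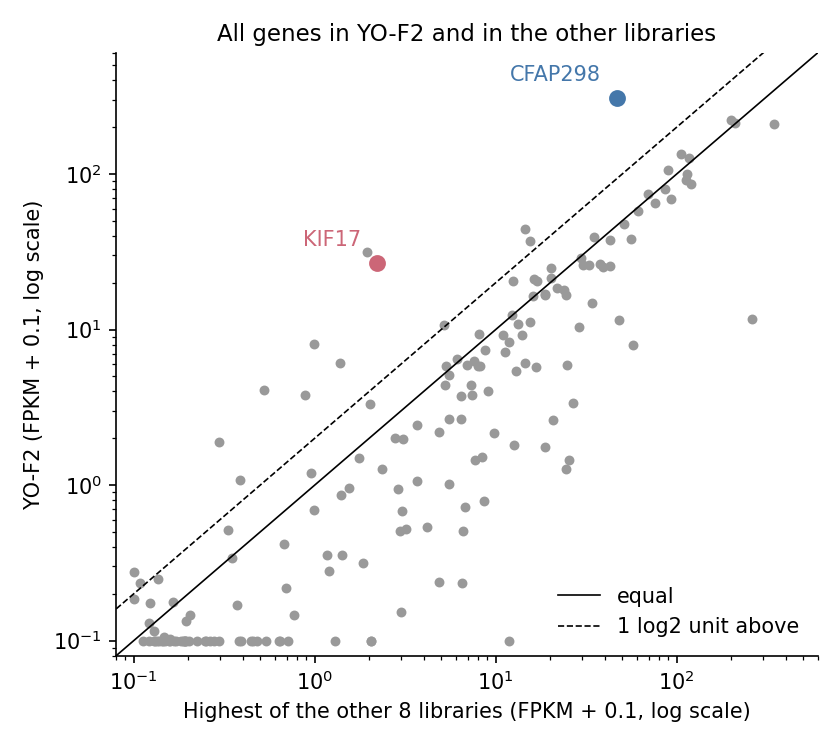
FPKM + 0.1 of each of the 173 genes in YO-F2 against the highest of the other 8 libraries, both on log scales. The solid line marks equal values and the dashed line 1 log2 unit above. KIF17 and CFAP298 lie above the dashed line, with gaps of 3.60 and 2.72 log2 units.

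KIF17 shares its place in the genome with another gene. It lies within the span of PINK1 (ENSBGRG00000000185, 4785163 to 4907008), a kinase of mitochondrial quality control on the plus strand. The libraries were made with dUTP, which marks the strand, but whether counting used the strand is not given in the sources used here, so reads from the 2 genes may not have been told apart. PINK1 had 17.8 FPKM in YO-F2, inside the 12.7 to 23.9 of the other libraries. Its neighbour DDOST, a subunit of the oligosaccharyltransferase, had 79.8 FPKM there, also inside its range of 51.3 to 86.3. SH2D5, on the other side, had 0.0460 FPKM there, below its range of 0.0731 to 0.664. None of these neighbours was above the other libraries in YO-F2. The span of PINK1 also holds DDOST (4809446 to 4826041) and overlaps SH2D5 (4899552 to 4912924), both on the minus strand. The limit on telling strands apart therefore applies to their values too.

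A second gene of the cilium family is in the table without a symbol, so the rule did not take it, and it was chosen after its values were seen. ENSBGRG00000000124 (minus strand of chromosome 1, 36123216 to 36135674) is described in the annotation as a cilia and flagella associated protein, CFAP298. It is known as a factor for assembling dynein arms and orienting beating cilia, and is also expressed in cells without them. In anestrus CFAP298 had 39.1, 36.9 and 35.9 FPKM. In estrus it had 47.0 in replicate 1 and 37.8 in replicate 3, and in pregnancy 30.2, 41.9 and 35.4. Its level was within a narrower range than that of KIF17, with a residual SD of 0.18 on the log2 scale, and the stages again overlapped.

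The stage means of CFAP298 were 42.4 FPKM ± 6.53 (SD, n = 2) in YO-F, 37.3 ± 1.62 (SD, n = 3) in YO-A and 35.8 ± 5.86 (SD, n = 3) in YO-P. For YO-FvsA its log2 fold change was 0.18 (standard error 0.16, limma adjusted p = 0.723). For YO-FvsP it was 0.25 (standard error 0.16, limma adjusted p = 0.672) and for YO-PvsA -0.071 (standard error 0.15, limma adjusted p = 0.908), and the gene was not called. The 95% intervals ran from -0.19 to 0.55, from -0.12 to 0.62 and from -0.40 to 0.26, and none reached 1 in either direction. Without pregnancy replicate 1 the YO-PvsA value was 0.046.

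In YO-F2, CFAP298 had 310 FPKM, the highest level of any of the 173 genes in that library. This was 6.59 times the highest and 8.29 times the median of the other 8 libraries, in which its mean ranked 19th. The level of CFAP298 over that of KIF17 was 11.5 in YO-F2 and 18.4 to 68.1 in the other libraries, so both genes were higher in YO-F2 and KIF17 by the larger factor. Over the 8 other libraries, the log2 values of both genes had a Pearson's r of 0.21 and a Spearman's rho of 0.26, given as a description over libraries of 3 stages. Without anestrus replicate 1 and pregnancy replicate 2, the libraries farthest from the KIF17 median, r was -0.043. The listed markers of ovarian and epithelial cells were not found by symbol among the genes analysed. Of genes chosen after their values were seen, CLDN8, a claudin of epithelial tight junctions, had 1.79 FPKM in YO-F2 and at most 0.197 in the other libraries. ADAMTS1, a protease of the ovulating follicle that other cells also make, had 11.6 FPKM there and up to 259 elsewhere, and JAM2, a junction molecule of endothelial cells, had 7.88 and up to 57.4. Of related genes, CLDN17 had 0 FPKM in YO-F2 and at most 0.0578 elsewhere, near the floor in every library. CXADR had 2.32 FPKM in YO-F2 and up to 3.57 elsewhere. Neither was above the other libraries in YO-F2. For ADAMTS1, JAM2, CLDN17 and CXADR only the highest value elsewhere is given, so a fall below all other libraries is not shown. ADAMTS5 had 3.24 FPKM in YO-F2, above its 0.741 to 1.92 in the other libraries. The part of a different mix of cells in YO-F2 was not tested.

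The genes whose pattern over the 8 libraries was most like that of KIF17 were sought among 80 genes with a symbol and a mean FPKM of at least 1. They were ABCD3 (Pearson's r = 0.77), a peroxisomal fatty acid transporter, NECTIN3 (0.73), a cell adhesion molecule, EEF1AKMT4 (0.69), a lysine methyltransferase, USP25 (0.60), a deubiquitinase, and CHODL (0.57), a C-type lectin. Spearman's rho was 0.81, 0.74, 0.57, 0.50 and 0.67 in that order. Without anestrus replicate 1 and pregnancy replicate 2, r was 0.50, 0.70, 0.29, 0.48 and 0.74. Only 2 of the 5, NECTIN3 and CHODL, were then still among the 5 most like KIF17, so both the choice and the order of these genes rested on those libraries. These values describe 8 libraries that share 3 stages and carry no test.

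The levels of these genes in YO-F2 did not follow 1 direction. ABCD3 had 20.3 FPKM in YO-F2, above its 7.86 to 12.3 in the other libraries. CHODL had 1.66 FPKM in YO-F2, below its 3.83 to 18.7 elsewhere.

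The m6A peaks of CCDC39 (ENSBGRG00000002146, plus strand of chromosome 1, 94021994 to 94064542) were listed in pregnancy. The authors' lists give 1 value per stage, so replicates cannot be separated and no stage was tested against another. The parts of the anestrus and estrus lists analysed here hold 9 and 18 peaks, all on the plus strand, and end at 22449705 and 36965772 of chromosome 1, before CCDC39. Nothing can therefore be said of this gene in those stages, nor of KIF17 in any, since all peaks analysed are on chromosome 1. The FPKM of CCDC39 was not analysed here.

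The first CCDC39 peak ran from 94040658 to 94047167 and was annotated to exon 7 of 14. Its fold enrichment of immunoprecipitated over input RNA was 10.8, with a log10 p of -2.39 and a false discovery rate (FDR) of 0.0162. The second, from 94048175 to 94048235 in exon 11, had a fold enrichment of 5.94, a log10 p of -2.11 and an FDR of 0.0295. The third, from 94048294 to 94059994 and annotated to exon 11 too, had a fold enrichment of 7.56, a log10 p of -2.89 and an FDR of 0.00550. All 3 peaks passed an FDR of 0.05, as did 83.3% of the 282 peaks in pregnancy.

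**Figure D4:**
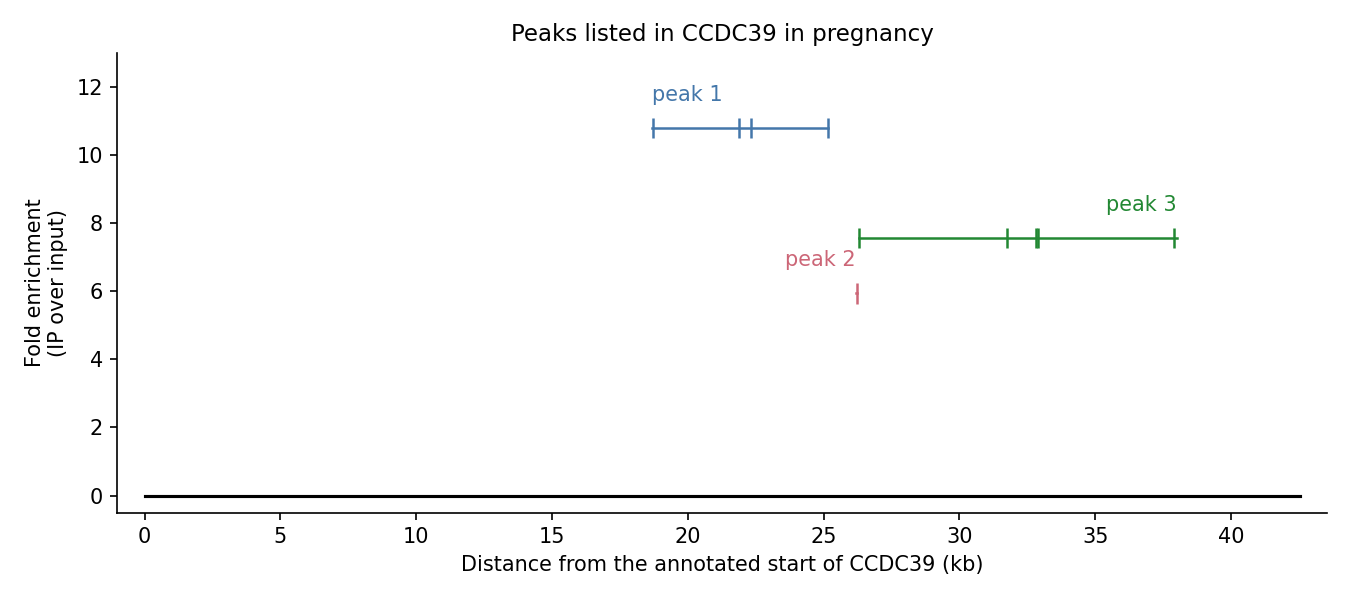
Peaks listed in CCDC39 in pregnancy, placed by distance from the annotated start of the gene in kb (x) and by fold enrichment of immunoprecipitated over input RNA (y). Ticks mark the middle of each stretch a peak covers (their widths are not drawn, and 2 ticks of the third peak nearly coincide), horizontal lines run from a peak's first to its last base, and the black line is the gene. The peaks lie between 18664 bases from the start and 4548 bases before the end, at fold enrichments of 5.94 to 10.8.

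The peaks are made of short stretches with gaps between them. The first covers 389 bases in 4 stretches, the second 61 bases in 1 stretch and the third 480 bases in 5 stretches, together 930 bases in 10 stretches of 30 to 175 bases. Only 58 bases lie between the second peak and the third. The first peak begins 43.9% and the third ends 89.3% of the way along the gene, and none of the 3 was annotated to a UTR. Over the whole pregnancy list, 69.5% of the peaks were annotated to exons outside UTRs, 20.6% to 3′ UTRs and 9.93% to 5′ UTRs. With 3 peaks, CCDC39 was 1 of 24 genes with 3 or more, out of 176 genes.

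By fold enrichment, the CCDC39 peaks ranked 27th, 91st and 54th of 282 and were all above the list's median of 4.43. By p-value they ranked 223rd, 229th and 208th, in the weaker part of the list. Of the 92 peaks with a fold enrichment of at least 5.94, 45 had a log10 p weaker than -3, as had 78 of all 282. All 3 peaks thus stood above the median on enrichment and low on statistical support within the list. The values of the first peak, 10.8 and -2.39, were also those of peaks in ENSBGRG00000002451, P2RY13 and URB1. The number of reads behind a peak is not given here, which limits the ranks by enrichment.

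The peaks of CFAP298 and IQCG in pregnancy had fold enrichments below those of CCDC39, with no test between peaks. CFAP298 had a peak from 36123711 to 36125281 with a fold enrichment of 1.75 and a log10 p of -30.1, and one from 36131170 to 36135438 with 1.64 and -24.5. These ranked 263rd and 266th by enrichment but 111th and 122nd by p-value. Of the 90 further motile cilium genes listed, 1 had a peak, IQCG, a subunit of the nexin-dynein regulatory complex (76158740 to 76168227, fold enrichment 2.16). Its FDR was 0.0851, so it did not pass 0.05. Of the 10 granulosa genes listed, 1 had a peak, FOXL2, a transcription factor of granulosa cells. Its fold enrichment was 4.53 and its log10 p -162, ranked 31st by p-value. Genes away from the analysed stretch of chromosome 1 could not appear in these counts. The lists were also cut by strand, with 228 plus-strand and 54 minus-strand peaks in pregnancy and 0 minus-strand peaks in the other stages. Nothing can therefore be said of CFAP298, on the minus strand, in anestrus or estrus.

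**Figure D5:**
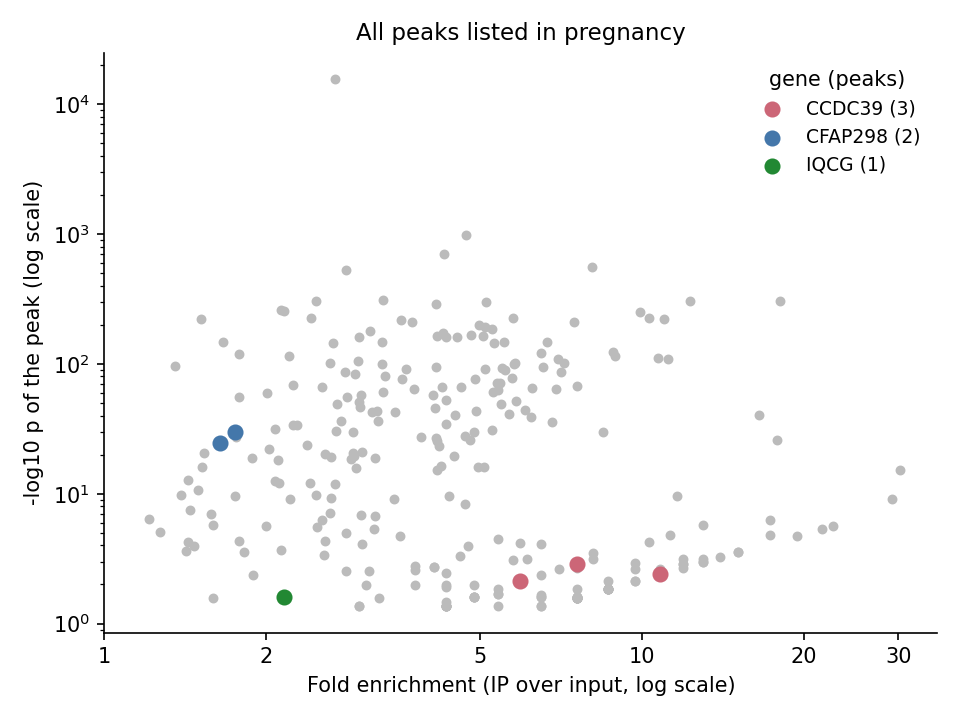
Fold enrichment (x, log scale) and -log10 p (y, log scale) of the 282 peaks listed in pregnancy, with the peaks of CCDC39, CFAP298 and IQCG in colour. The 3 CCDC39 peaks lie at 5.94 to 10.8 on the x axis in the low band of the p axis, and the 2 CFAP298 peaks at 1.64 and 1.75 well above that band.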

How the data were processed

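Ovarian RNA of 3 stages was sequenced, and the authors filtered reads with fastp, aligned them to a yak genome with HISAT2 (2.0.4 in the submitters' processing notes) and used StringTie for gene levels. As deposited by the authors, values are FPKM per gene and library, without further scaling stated. The peak lists deposited by the authors give a fold enrichment as a ratio and, per the file headers, scores with the log10 of p and FDR. ChIPseeker (1.18.0) is named in the notes, and the peak caller is not given in the sources used here. Tables with the authors' own comparisons of peaks between stages (fold changes and p-values) were not used. The expression rows used here cover 173 genes, and 1 incomplete row was dropped, as were incomplete last rows of peak lists. These are leading portions of larger tables that stop within a row, so every rank, share and adjusted p describes those genes or peaks and not the transcriptome.

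Groups came from sample titles. FPKM values were compared as log2(FPKM + 0.1) with limma 3.58.1 in R 4.3.3 (empirical Bayes with a trend), over 8 libraries and 126 genes, p-values adjusted by Benjamini-Hochberg over all of them. The study's own test needs counts. Whether libraries of a stage are separate animals is implied but not labelled one by one, so p-values measure the spread between these samples. Depth per gene is unknown. Scripts ran in Python 3.11.15 (scipy 1.17.1, numpy 2.4.6, pandas 2.3.3), figures in matplotlib 3.10.9, and the fit was tested on simulated data with seed 11. In that simulation all genes had the same spread, and a part of them had large shifts in estrus. It therefore does not address small differences in a gene as variable as KIF17.

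Named genes were the members of the rule, peaks of members, genes of the fixed lists with a peak, and the 5 genes with a symbol and a mean FPKM of at least 1 most correlated with KIF17. CFAP298 and the neighbours of KIF17 were added after their values were seen, and 1 listed gene with a peak is not reported here. The members and lists were chosen with earlier results of these data known.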

Additional observations from a re-analysis of the deposited data

Results flagged for a closer look

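Both flagged values come from YO-F2, a library that the stage comparisons leave out, and each is above all 8 other input libraries. KIF17 had 26.8 FPKM there and 0.613 to 2.12 in the others. ENSBGRG00000000124, annotated as CFAP298, had 310 FPKM there and 30.2 to 47.0 in the others. YO-F2 is 1 library, so neither difference has a replicate, and their cause was not tested. No stage had the 4 libraries needed to look for outlying samples within it.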

How the results depend on the processing

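KIF17 was called in 0 of 20 alternatives in each stage comparison. Its gap above the other libraries in YO-F2, the value it was picked for, was 3.16 to 3.67 log2 units over other added values and scalings. That range is a description only. The remaining alternatives only filter genes or raise the threshold, so they could not change the gap. The direction of the stage differences of KIF17 was not stable. With YO-F2 included, its log2 fold change was 1.35 in YO-FvsA and 1.55 in YO-FvsP, and with quantile normalization it was 0.011 in YO-FvsP. With each library left out in turn it ranged over -0.63 to 0.22 for YO-FvsA, -0.42 to 0.41 for YO-FvsP and -0.59 to 0.23 for YO-PvsA. Over all alternatives the limma p of KIF17 was at least 0.225 unadjusted and 0.557 adjusted. CFAP298 was 1.13 (YO-FvsA) and 1.21 (YO-FvsP) with YO-F2 included, and with each library left out it was 0.019 to 0.33 and 0.090 to 0.40, lowest without estrus replicate 1. In YO-PvsA it was 0.10 with quantile normalization and -0.19 to 0.046 with each library left out. The cause was not tested. With the replicate number as a block, KIF17 had -0.26 for YO-FvsA, -0.060 for YO-FvsP and -0.20 for YO-PvsA and was not called. The yaks were euthanized for collection, so the numbers pair no animals across stages. Deviations of same-numbered libraries correlated at -0.27 to 0.41 and those of other pairs at -0.36 to 0.46. These values cannot exclude another link by number, since the 2 estrus libraries mirror each other around their mean. The count over all 126 genes, 1, 3 and 3, was 1 to 9, 1 to 8 and 1 to 4 over the alternatives, highest without estrus replicate 3 in YO-FvsA and YO-FvsP. The count of 0 genes at a limma adjusted p under 0.05 did not hold in 7 of 19 alternatives for YO-FvsA. Among those that kept both estrus libraries, the smallest limma adjusted p ran from 0.00707 without pregnancy replicate 1 to 0.0441 with median-ratio scaling. In each of these, 1 gene passed. For YO-FvsP the count of 0 did not hold in 4 of 19 alternatives. All 3 CCDC39 peaks stayed at an FDR under 0.05. Overlap of peaks between stages could not be computed, since the anestrus and estrus lists analysed do not reach CCDC39. With 2 to 3 libraries a stage, the unknown number of fragments behind a value near 1 FPKM limits these results further.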
